A study of Bos taurus with 12 samples.

Results

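The apolipoproteins examined here were 10 genes, APOA1, APOA2, APOA4, APOA5, APOB, APOC2, APOC3, APOE, APOH and APOM, chosen by symbol and found by their Entrez gene IDs among the 30336 genes of the deposited count files. All 10 were found, and all 10 passed the filter on low counts that left 13212 genes for the test. Liver was sampled by puncture biopsy from 12 Holstein heifer calves at 4 days of age. Of these, 6 were born to cows on a control diet (CON), and 6 to cows given the same diet with methionine protected from the rumen by ethyl cellulose (MET) during the last 28 days before calving. The shared basal diet held 1.47 Mcal per kg of dry matter and 15.3% crude protein, and the calves of both groups were managed alike once born. The comparison asks whether methionine given to the dam was followed by a different level of these transcripts in the liver of her calf.

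Apolipoproteins are the protein part of the particles that carry lipid in plasma, and the liver is a main source of most of them. APOB encodes the large, non-exchangeable scaffold on which very low density lipoproteins are built inside the hepatocyte. Most of the others move between particles: the A proteins are mostly found on high density lipoproteins, the C proteins adjust the action of lipoprotein lipase, and apolipoprotein E is a ligand for receptors that clear remnants.

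Between 8277789 and 10397604 reads per library were assigned to genes. A pair of CON libraries, replicates 1 and 4, had counts that agreed almost within sampling noise (mean chi-square per gene of 1.33), and so had a pair of MET libraries, replicates 1 and 3 (1.24), whereas the other 64 pairs of libraries had values of 25.1 to 133. Each of these pairs was therefore averaged and counted as 1 sample, written CON 1 and MET 1 below, which left 5 samples per diet. Tests were run over all 12 libraries and again over the 10 samples, and the text gives the second for some genes only. The fits over 12 libraries treat the libraries of a near-identical pair as independent. If each pair is 1 calf, their standard errors, intervals and adjusted p are too small. All CON libraries carried a different first index from all MET libraries, so that an effect of the index and of the diet cannot be told apart. The labels do not say that the replicate numbers mark anything shared between the diets.

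Per length of transcript, the levels of the 10 genes covered a wide range. Levels below are read counts scaled to a common library size after TMM normalization (CPM), divided by exonic length in kb, as mean ± SD over 10 samples. APOE was the highest at 6511 ± 1145 CPM per kb, followed by APOA2 at 6048 ± 1493 and APOH at 4672 ± 720. These were ranks 11, 13 and 17 among all tested genes. APOE exceeded APOA2 in 8 of 10 samples and APOA2 exceeded APOH in 8 of 10, and the ranges of both pairs overlapped, so neither of these neighbouring pairs was separated beyond the spread of the samples. APOE was above APOH in 10 of 10 samples, by a mean log2 ratio of 0.47 (SD 0.310). APOC3 came next at 2812 ± 908 CPM per kb and was above APOC2 (1538 ± 358) in 10 of 10 samples. APOC2 and APOA1 (1481 ± 501) did not differ beyond their spread, with APOC2 the higher in 6 of 10 samples. A gap followed, in which the lowest APOA1 sample (660 CPM per kb) remained above the highest APOA5 sample (523). The last 4 were APOA5 at 366 ± 110, APOM at 170 ± 43.5, APOB at 76.8 ± 12.7 and APOA4 at 48.3 ± 28.6 CPM per kb. The scaffold gene APOB thus stood near the end of the order per length, although in reads, with an exonic length of 14286 bases, it drew more CPM than APOA5, APOC2, APOA4 or APOM.

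The 10 genes together took 2.33 ± 0.183% of the counted reads in CON samples and 2.48 ± 0.460% in MET samples (SD, n = 5 each). The CON shares were 2.36, 2.41, 2.10, 2.57 and 2.20% for CON 1, 2, 3, 5 and 6. The MET shares were 2.64, 2.52, 2.37, 1.81 and 3.07% for MET 1, 2, 4, 5 and 6. The lowest and the highest of the 10 samples were both MET calves, MET 5 and MET 6, so the diets overlapped, and the difference of the means (0.157 percentage points) was smaller than the SD of either diet. This difference moved with those 2 calves: it was 0.00885 without MET replicate 6 and 0.326, above the SD of the CON samples, without MET replicate 5. APOE alone supplied 36.4 ± 2.49% of these reads in CON and 42.5 ± 3.92% in MET samples. The diets overlapped here too, with CON 1 at 39.9%, MET 1 at 39.7% and MET 2 at 39.5%. This part also depends on the other genes: MET 5 had the highest, 48.3%, with an APOE level (9769 CPM) inside the CON range (7028 to 10030 CPM).

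When the quasi-likelihood test of edgeR was run over the 12 libraries, with Benjamini-Hochberg adjustment over all tested genes, 1 of the 10 apolipoprotein genes, APOB, passed an FDR of 0.10, beside 4.41% of all tested genes (583 of 13212). Counted in the direction of APOB, 2.32% of all tested genes were called lower in MET. At an unadjusted p of 0.05, 2 of 10 passed (APOB and APOA5) beside 20.5% of tested genes, a share near the background. Over the 10 samples no gene of the series passed, so the called share was 0%. There, edgeR gave 2165 genes at an unadjusted p of 0.05 (16.3%), 2 of the 10 among them, and DESeq2 called 639 genes at an FDR of 0.10. The median log2 fold change of the 10 genes over 12 libraries was -0.034, beside -0.0031 for all tested genes, and 6 of the 10 estimates were negative and 4 positive, with APOH turning from negative to positive when libraries were scaled by size alone. The balance moved with the processing: with the length trend removed 9 estimates were negative and only that of APOE positive, with a median of -0.13 beside 0.00080 for all tested genes, and over the 10 samples 5 were negative and 5 positive. With 1 library left out, from 3 (without MET replicate 5) to 8 (without MET replicate 6) of the 10 were negative. Puncture biopsies hold all cell types of the liver, and fewer cells of a type cannot be told apart from less RNA per cell in such bulk samples.

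APOB lies on chromosome 11 from 77953271 to 78040406 on the forward strand (UMD 3.1.1). In CON samples 1, 2, 3, 5 and 6 it had 1113, 1320, 1338, 1204 and 1274 CPM, and in MET samples 1, 2, 4, 5 and 6 it had 947, 936, 813, 1043 and 980 CPM. Every MET sample was thus below every CON sample, a separation in this direction found in 1.77% of tested genes. The means were 1250 ± 92.3 in CON and 944 ± 84.2 CPM in MET samples (SD, n = 5 each). By the quasi-likelihood test of edgeR, adjusted after Benjamini-Hochberg, APOB was lower in MET over 12 libraries by a log2 fold change of -0.38 (SE 0.105, 95% confidence interval -0.60 to -0.15, adjusted p = 0.0859). Over the 10 samples the log2 fold change was -0.41 (95% interval -0.68 to -0.13) with an adjusted p of 0.189 in edgeR, so the call was lost while the estimate was of similar size. DESeq2 over the same 10 samples gave -0.40 and an adjusted p of 0.00974, within the FDR of 0.10. APOB also varied little within a diet: its SD of log2 CPM was 0.121, below that of all but 3.66% of tested genes.

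The adjusted p of APOB crossed the threshold with single libraries left out, while its estimate moved little, and both changed with the treatment of gene length. Leaving out 1 library at a time, the log2 fold change was -0.41 to -0.34 and edgeR's adjusted p was 0.0967 to 0.139, and only the fit without MET replicate 5 stayed within the FDR of 0.10, while each of the other 11 fits did not. Across all libraries, transcripts of different length differed in their estimates. The median log2 fold change was 0.20 in the 1037 tested genes with less than 1000 exonic bases and -0.16 in the 785 genes of 8000 bases or more. APOB was longer than 99.5% of tested genes, and the 64 tested genes of at least its length had a median of -0.18, with 10 of the 64, APOB counted, at or below the value of APOB. With each library's trend on length removed, APOB had a log2 fold change of -0.20 (95% interval -0.44 to 0.041) and an adjusted p of 0.373 in edgeR. Over all alternatives run, its adjusted p was between 0.00118 (DESeq2, 12 libraries) and 0.440 (length trend removed, 10 samples).

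**Figure D1:**
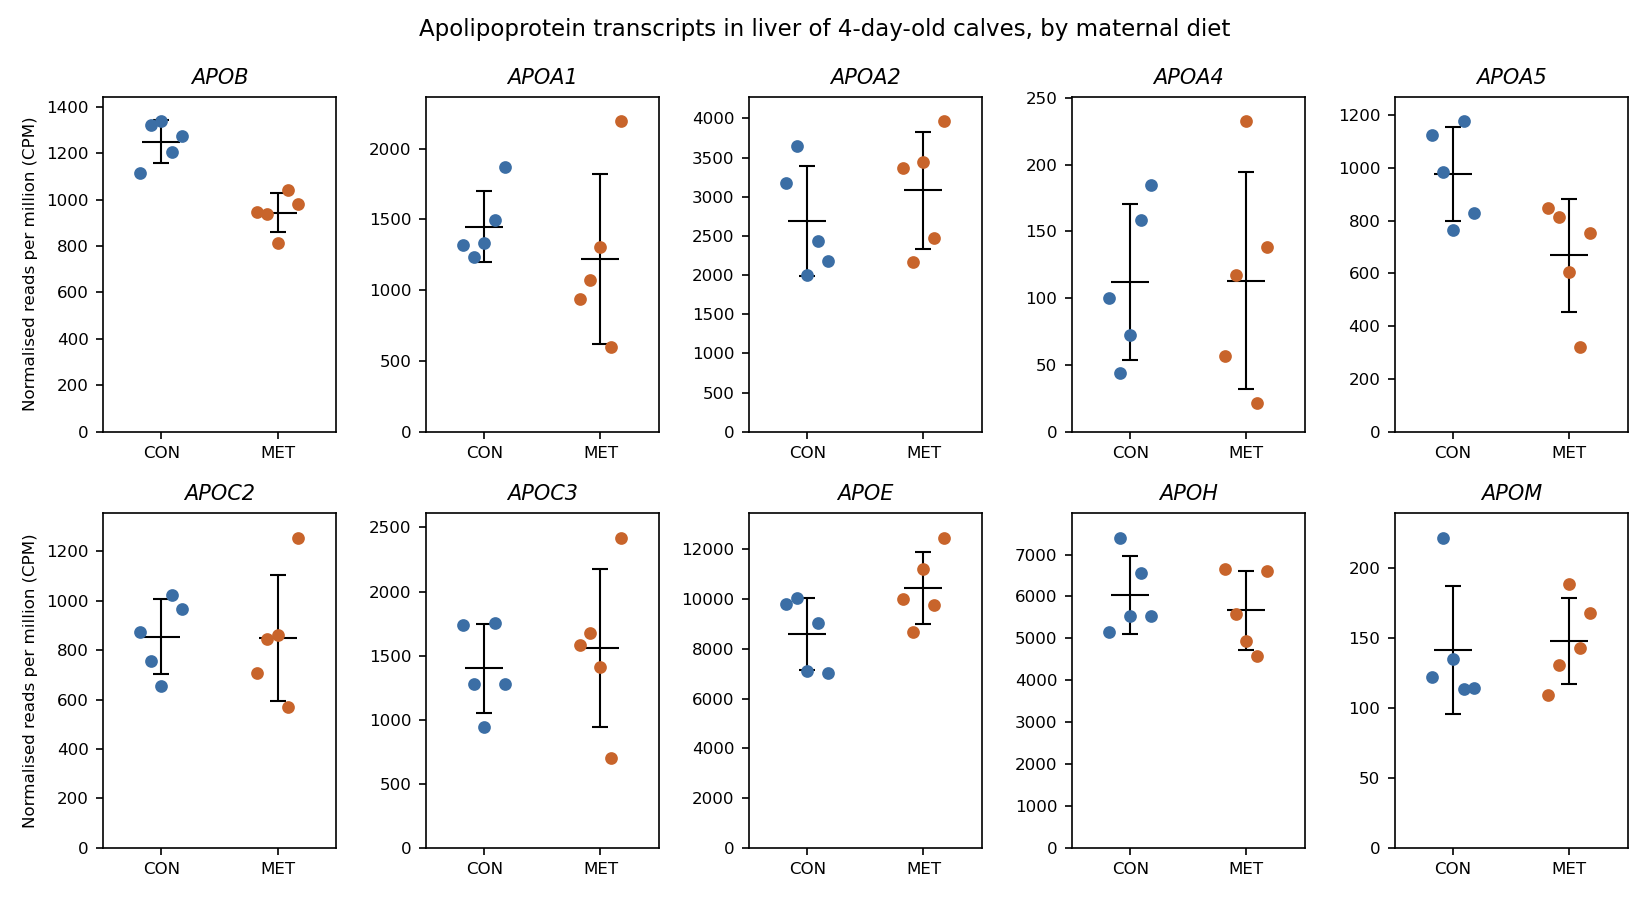
Level of each apolipoprotein transcript (vertical axis, TMM-normalised CPM, from 0) in each of 5 CON and 5 MET samples (points), with the mean and SD (black bars). APOB is the gene whose MET samples (813 to 1043) all lie below the CON samples (1113 to 1338), and the other 9 overlap between the diets.

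Among the A apolipoproteins, APOA1 encodes the main structural protein of high density lipoproteins and the activator of LCAT. It had 1319, 1231, 1330, 1494 and 1867 CPM in CON 1, 2, 3, 5 and 6, and 936, 1070, 1305, 595 and 2192 CPM in MET 1, 2, 4, 5 and 6. The 10 samples ran from MET 5 to MET 6, so that 3 MET samples were below all CON samples and 1 was above them. The log2 fold change over 12 libraries was -0.28 (95% interval -0.82 to 0.25, adjusted p = 0.548 in edgeR), and -0.48 (95% interval -0.94 to -0.010, adjusted p = 0.274 in edgeR) with the length trend removed. Over the 10 samples with that trend removed it was -0.45 (95% interval -1.01 to 0.11, adjusted p = 0.449 in edgeR). Leaving out 1 library at a time moved the first of these estimates from -0.56 (without MET replicate 6) to -0.15 (without MET replicate 5). The coefficient of variation was 17.4% in CON and 49.3% in MET samples, a difference that was not tested.

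APOA2, the second protein of high density lipoproteins by abundance, had 3177, 3651, 1994, 2435 and 2185 CPM in the CON samples and 3372, 2163, 3443, 2468 and 3962 CPM in the MET samples, in the same order. High and low samples occurred in both diets. The log2 fold change was 0.18 (95% interval -0.23 to 0.58, adjusted p = 0.636 in edgeR), it was 0.094 to 0.27 with 1 library left out, and it became -0.037 with the length trend removed. APOA2 has the shortest exonic length of the 10 genes, 477 bases.

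APOA5 encodes a protein of low plasma abundance that promotes the hydrolysis of triglyceride by lipoprotein lipase. It had 1126, 987, 767, 1177 and 830 CPM in CON 1, 2, 3, 5 and 6, and 847, 816, 606, 323 and 753 CPM in MET 1, 2, 4, 5 and 6. The 3 lowest values belonged to MET calves, the 3 highest to CON calves, and 2 MET samples lay within the CON range. The log2 fold change was -0.52 over 12 libraries (SE 0.211, 95% interval -0.97 to -0.068), the largest in size of the 10 genes, but with an adjusted p of 0.189 in edgeR it did not pass the FDR of 0.10. Over the 10 samples the values were -0.55 and 0.295 in edgeR, and with the length trend removed -0.54 and 0.201 in edgeR.

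APOA4, made in large amounts by the intestine in many mammals, was the most variable of the 10 genes. It had 100, 44.2, 72.6, 158 and 185 CPM in the CON samples and 56.9, 117, 232, 21.3 and 138 CPM in the MET samples. The highest sample was 10.9 times the lowest, both were MET calves, and the SD of log2 CPM within a diet (1.11) was above that of 98.3% of tested genes. The 95% interval of the log2 fold change, -1.09 to 0.92, was correspondingly wide. Of 6 enterocyte markers, FABP2, LCT and SI had 0 reads in all 12 libraries, and a count of 0 allows up to 3 reads, or 0.289 to 0.362 CPM by library. The other 3 had reads, CDH17 at 30.2 CPM in CON and 33.2 CPM in MET samples, VIL1 at 6.05 and 5.27 CPM, and CDX2 with 34 reads in all. The part of such cells in the level of APOA4 was not tested.

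The C apolipoproteins are small and exchange readily between particles. APOC2, the cofactor that activates lipoprotein lipase, had 872, 756, 656, 1025 and 967 CPM in the CON samples and 708, 847, 862, 571 and 1256 CPM in the MET samples. APOC3, an inhibitor of lipoprotein lipase and of remnant clearance, had 1742, 1282, 942, 1751 and 1282 CPM in the CON samples and 1585, 1674, 1412, 702 and 2421 CPM in the MET samples. For both genes the extremes were MET 5 and MET 6 and the CON samples lay between them. The log2 fold changes were -0.056 (95% interval -0.44 to 0.33) for APOC2 and 0.10 (-0.42 to 0.62) for APOC3, so differences of either sign within these bounds could not be resolved. With the length trend removed they were -0.29 and -0.14.

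APOE, the ligand for receptors that clear remnants, had 9791, 10030, 7104, 9026 and 7028 CPM in the CON samples and 10005, 8696, 11216, 9769 and 12468 CPM in the MET samples. Only MET 4 and MET 6 were above all CON samples, and no MET sample was below them all. The log2 fold change was 0.24 (SE 0.150, 95% interval -0.085 to 0.56) with an adjusted p of 0.393 in edgeR. Macrophages also make apolipoprotein E, and markers of Kupffer cells, the resident macrophages of the liver, are given with the other cell types further on.

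APOH, which encodes a plasma glycoprotein that binds anionic phospholipids, ranged from 5145 to 7406 CPM in CON and from 4581 to 6649 CPM in MET samples, with a log2 fold change of -0.012 (95% interval -0.34 to 0.31). APOM, a lipocalin of high density lipoproteins that carries sphingosine 1-phosphate, ranged from 114 to 222 CPM in CON and from 110 to 188 CPM in MET samples, with a log2 fold change of 0.036 (-0.37 to 0.44). The ranges overlapped in part: 2 MET samples were below all CON samples for APOH, 1 was for APOM, and CON 2 was above all MET samples for both genes.

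**Figure D2:**
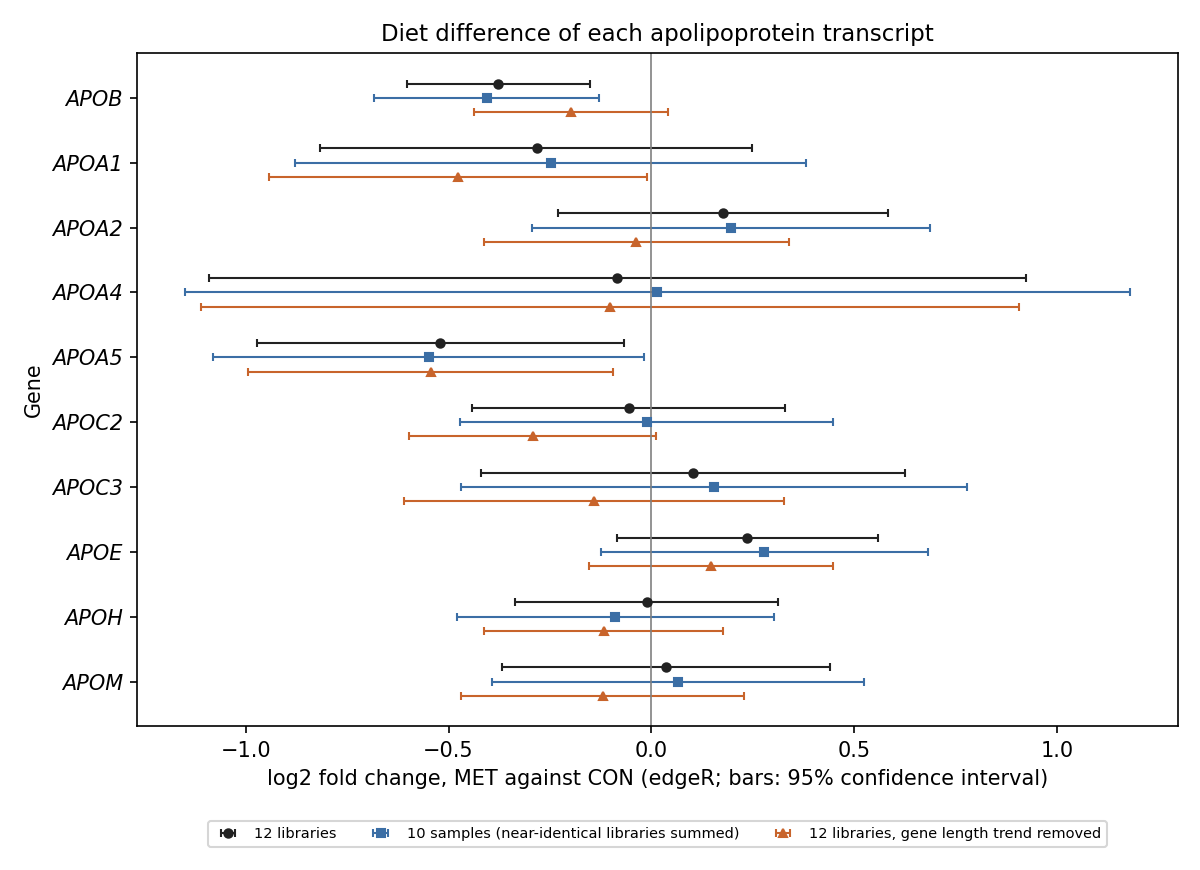
Log2 fold change of each gene, MET against CON (horizontal axis), with its 95% confidence interval, from edgeR over 12 libraries (circles), over 10 samples (squares) and over 12 libraries with the trend on gene length removed (triangles). The interval of APOB excludes 0 in the circles and squares and reaches 0.041 in the triangles, that of APOA5 lies below 0 in each, and that of APOA1 lies below 0 in the triangles only (-0.94 to -0.010). With the trend removed over 10 samples, which is not drawn, the interval of APOA1 was -1.01 to 0.11.

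MET 5 and MET 6 set the extremes of several genes. MET 5 was the lowest sample of APOA1, APOA4, APOA5, APOC2, APOC3 and APOH, and MET 6 was the highest of APOA1, APOA2, APOC2, APOC3 and APOE. APOB did not share this order, for MET 5 was its highest MET sample. MET 5 also differed from most libraries across the counted genes at large. Every pair of libraries with a mean chi-square per gene of 84.9 to 133 included MET 5, while its values with MET 4 (52.0) and CON 3 (70.2) were lower. Across the 10 samples, in log2 CPM, the highest correlations among the 10 genes were those of APOA2 with APOE (r = 0.878), APOA1 with APOC2 (r = 0.862) and APOC2 with APOC3 (r = 0.855), and the lowest was that of APOB with APOE (r = -0.637). With the diet means removed, the highest were again APOA2 with APOE (0.909) and APOA1 with APOC2 (0.903), followed by APOA5 with APOC3 (0.896), while the lowest became APOA4 with APOB (-0.667) and that of APOB with APOE was -0.330. The values are descriptive, over n = 10, and both genes of each pair were read from the same libraries at the same depth.

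Several of these genes are neighbours. APOA5, APOA4, APOC3 and APOA1 lie within 62987 bases of chromosome 15, from 27871099 to 27934085 (UMD 3.1.1). APOC3 (27914680 to 27917270, forward strand) falls inside the span of APOA4 (27906598 to 27919563, reverse strand), between the exons of APOA4, with 0 exonic bases shared. The 60 exonic bases of APOA4 at its upper coordinates are shared with an unnamed gene on the same strand, so reads confined to them were not assigned, which leaves the level of APOA4 uncertain to that extent. On chromosome 18, APOE, APOC4 and APOC2 follow one another within 19861 bases, from 53040105 to 53059965. APOA2 is on chromosome 3 (8301476 to 8302731), APOH on chromosome 19 (63220626 to 63243087) and APOM on chromosome 23 (27459275 to 27464259), where 87 exonic bases overlap BAG6 on the opposite strand. The estimates within the chromosome 15 cluster ran from -0.52 for APOA5 to 0.10 for APOC3 over 12 libraries, and with the length trend removed all 4 were negative, from -0.54 for APOA5 to -0.10 for APOA4.

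**Figure D3:**
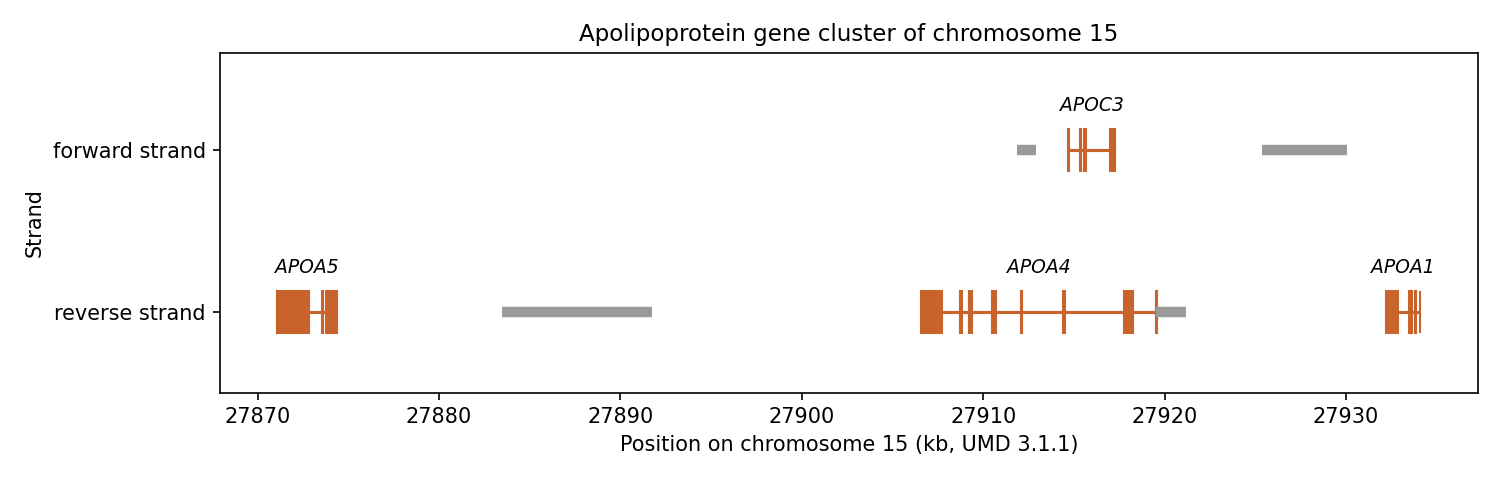
Map of the apolipoprotein cluster of chromosome 15 (horizontal axis, position in kb on UMD 3.1.1), by strand. Boxes are merged exons of the 4 apolipoprotein genes, thin lines their introns and grey bars the spans of other annotated genes, and APOC3 lies on the forward strand within the span of APOA4.

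For each gene, the 3 tested genes outside the 10 with the most similar profile were sought by Pearson's r of log2 CPM over the 10 samples. For APOB they were PTPN21 (r = 0.957), AADAC (0.949) and ZMYND11 (0.942), all lower in MET and within the FDR of 0.10 over 12 libraries. The diet means were not removed for this search, so a gene that separates the diets, as APOB does, tends to be matched with others that do. For APOE they were SLC35D2, GPAA1 and STK25, with r of 0.933 to 0.942, and for APOA5 BLTP3A, PPP2R2A and SLC37A4, with r of 0.907 to 0.936. APOH was most like TMEM53 (r = 0.963), TAX1BP3 and TTR, the last of these encoding transthyretin, a plasma carrier made by hepatocytes. APOA1 was most like CPT1B, MMP23 and PLK3 (0.867 to 0.893), and APOA2 most like TUSC2, RRAS and ABHD14B (0.913 to 0.948). APOA4 was most like C1H3orf52, MPC1 and MRPS22 (0.913 to 0.945), APOC3 like BAX (0.915) and AGPAT2 (0.894), and APOM most like OAZ1, SSR4 and ELP4 (0.886 to 0.922). For APOC2 they were SYAP1, MGLL and a gene without a symbol (0.907 to 0.941). Such values arise from 10 samples searched against all tested genes and are descriptive.

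Of 10 other apolipoproteins listed, 6 had an unambiguous symbol, 5 were tested and none passed the FDR of 0.10, which 4.41% of all tested genes did. Clusterin (CLU) was the highest per length at 652 CPM per kb. SAA4 had the largest positive log2 fold change (0.45, SE 0.364), which was 0.22 to 0.62 with 1 library left out, and APON the largest negative (-0.25, SE 0.127). APOF and APON overlap on the same strand, which leaves both counts uncertain. APOC4, between APOE and APOC2, had a log2 fold change of 0.18 (SE 0.188), which was 0.044 to 0.32 with 1 library left out and turned to -0.031 with the length trend removed.

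The genes that load lipid onto apolipoprotein B and export the particle were all measured, 15 of 15. None passed the FDR of 0.10, which 4.41% of all tested genes did. MTTP, the microsomal transfer protein that lipidates apolipoprotein B, had 176 ± 32.2 CPM in CON and 148 ± 18.8 in MET samples (SD, n = 5). Its log2 fold change was -0.16 (SE 0.138) over 12 libraries, -0.25 over the 10 samples and -0.10 with the length trend removed. With 1 library left out it ran from -0.21 to -0.091. P4HB, the partner subunit of MTTP, was the highest of the list per length at 639 CPM per kb. The largest positive estimate was that of SURF4, a cargo receptor of the endoplasmic reticulum (0.34, SE 0.150, adjusted p = 0.217 in edgeR), and the largest negative that of PRAP1 (-0.50, SE 0.546; -0.67 to 0.44 with 1 library left out). The median of the list was -0.0067. Of 4 genes for the editing of APOB mRNA, the deaminase APOBEC1 had 0 reads in all libraries. Its cofactors A1CF (-0.24, SE 0.143) and RBM47 (-0.067, SE 0.117) did not pass. With the length trend removed their estimates were -0.078 and 0.095. With 1 library left out, A1CF ran from -0.30 to -0.15 and RBM47 from -0.14 to -0.0059.

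Among lipases, transfer proteins and their inhibitors, 9 of 12 were tested. LCAT was the highest of the list per length at 215 CPM per kb, and ANGPTL4 had the largest positive estimate (0.30, SE 0.545), whose sign turned with 1 library left out (-0.68, without MET replicate 4, to 0.65).

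None of 10 tested receptors and regulators, of 13 listed, passed, beside 4.41% of all tested genes. VLDLR, at 1.96 CPM in CON and 2.04 CPM in MET samples, had the largest positive log2 fold change (0.27, SE 0.308; 0.081 to 0.46 with 1 library left out). LRPAP1, a chaperone of these receptors, was the highest per length at 48.0 CPM per kb. The 4 transporters of sterol and phospholipid efflux were all tested, and none passed. ABCG8 had the highest level per length (19.0 CPM per kb) and the largest positive estimate (0.14, SE 0.312), and ABCG1 the largest negative (-0.15, SE 0.448), and with 1 library left out both changed sign (-0.17 to 0.34 and -0.49 to 0.15). ABCA1, which lipidates apolipoprotein A1, had 96.7 ± 50.5 CPM in CON and 98.7 ± 69.6 CPM in MET samples (SD, n = 5).

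Of 25 transcription factors known to act on apolipoprotein genes, 24 were tested, 1 passed as higher in MET and 2 as lower, beside 4.41% of all tested genes called in either direction (276 higher and 307 lower of 13212). NR0B2, a nuclear receptor without a DNA-binding domain that represses other receptors, was at 15.8 ± 8.05 CPM in CON and 39.2 ± 11.3 CPM in MET samples (SD, n = 5), and all 5 MET samples were above all CON samples. Its log2 fold change was 1.40 (SE 0.268, adjusted p = 0.0452 in edgeR). PPARA, the fatty acid receptor that acts on genes of lipid oxidation and on several apolipoprotein genes, was at 17.9 ± 1.57 CPM in CON and 13.1 ± 2.00 CPM in MET samples, again without overlap, with a log2 fold change of -0.42 (SE 0.116, adjusted p = 0.0849 in edgeR). NR1D2, a repressor of the circadian clock, had a log2 fold change of -0.53 (SE 0.103, adjusted p = 0.0452 in edgeR). Over the 10 samples the adjusted p of these 3 genes was 0.174, 0.178 and 0.174 in edgeR, with log2 fold changes of 1.31, -0.45 and -0.49. With the length trend removed over 12 libraries it was 0.0688, 0.102 and 0.0893 in edgeR, with log2 fold changes of 1.31, -0.43 and -0.42. The call of PPARA was thus lost there too, while its estimate was of similar size. Leaving out CON replicate 1 or CON replicate 4, which are the near-identical pair, ended the calls of NR0B2 and NR1D2 (adjusted p up to 0.104 in edgeR), and that of PPARA was ended in 10 of 12 such fits (up to 0.152), all but those without CON replicate 2 or CON replicate 5. HNF4A, an activator of many of the 10 genes, was the highest of the list per length (97.0 CPM per kb) and had a log2 fold change of -0.14 (SE 0.130; -0.20 to -0.062 with 1 library left out). ONECUT1, at 2.04 CPM in CON and 1.21 CPM in MET samples, had the largest negative estimate (-0.84, SE 0.420, adjusted p = 0.271 in edgeR).

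Markers of the cell types of liver were examined beside these results. None of 8 hepatocyte markers passed, beside 4.41% of all tested genes, and the median of their estimates was -0.14. Their summed level was 185700, 200700, 144800, 178600 and 186400 CPM in CON 1, 2, 3, 5 and 6, and 150800, 120200, 146300, 158300 and 156100 CPM in MET 1, 2, 4, 5 and 6. Most CON samples were thus above the MET samples, with CON 3 within their range, and ALB, the gene of albumin and the most abundant of the list (24820 CPM per kb), had a log2 fold change of -0.65 (SE 0.200, adjusted p = 0.107 in edgeR). TTR had the largest positive estimate (0.068; -0.075 to 0.24 with 1 library left out, and -0.13 with the length trend removed).

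Of 8 Kupffer cell markers 2 passed as higher in MET, beside 276 of all 13212 tested genes, C1QB (0.39, SE 0.107, adjusted p = 0.0855 in edgeR) and C1QC (0.41, SE 0.0888, adjusted p = 0.0571 in edgeR), and all 8 estimates were positive, with a median of 0.28. Neither passed over the 10 samples (adjusted p = 0.213 and 0.175 in edgeR) or with the length trend removed (0.146 and 0.147 in edgeR). The estimates of C1QB and C1QC were 0.36 and 0.40 over the 10 samples, and 0.32 and 0.28 with the length trend removed. With 1 library left out, the call of C1QB was lost in 10 of 12 fits, all but those without CON replicate 3 or MET replicate 5 (up to 0.165), and that of C1QC without CON replicate 1 or CON replicate 4 (up to 0.125). The summed level of the list was 1318, 1602, 1749, 1552 and 1639 CPM in the CON samples and 1812, 2068, 1794, 1553 and 2002 CPM in the MET samples. All MET samples but MET 5 were above all CON samples. MARCO was the most abundant per length (289 CPM per kb), and none of the list was at 0.

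Of 5 cholangiocyte markers 4 were tested, and, like 2.32% of all tested genes, CFTR passed as lower in MET (-0.56, SE 0.159, adjusted p = 0.0889 in edgeR). Its estimate and adjusted p in edgeR were -0.54 and 0.195 over the 10 samples, and -0.44 and 0.163 with the length trend removed. The call of CFTR was lost in 9 of 12 fits with 1 library left out and kept without CON replicate 2, CON replicate 5 or MET replicate 2. KRT7 had the largest positive estimate (0.0021; -0.14 to 0.22 with 1 library left out). Their summed level was 51.1, 50.8, 72.4, 62.8 and 78.1 CPM in the CON samples and 67.8, 52.0, 32.2, 30.6 and 62.4 CPM in the MET samples, with EPCAM the most abundant per length (12.2 CPM per kb). Of 7 mesenchymal markers LUM passed as lower in MET (-0.70, SE 0.205, adjusted p = 0.0985 in edgeR). Its estimate and adjusted p in edgeR were -0.695 and 0.211 over the 10 samples, and -0.738 and 0.116 with the length trend removed. The call of LUM was lost in 10 of 12 fits with 1 library left out and kept without CON replicate 2 or MET replicate 5. All 7 estimates over 12 libraries were negative, ACTA2 the nearest to 0 (-0.19, SE 0.338), but with 1 library left out that of ACTA2 ran from -0.63 to -0.034 and that of COL1A1 reached 0.00092. Their summed level was 598, 665, 748, 685 and 939 CPM in the CON samples and 632, 494, 456, 520 and 812 CPM in the MET samples, led by COL3A1 per length (63.4 CPM per kb). These sums overlapped between the diets for both cell types.

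None of 6 endothelial markers passed, beside 4.41% of all tested genes. Their summed level was 395 ± 72.4 CPM in CON and 351 ± 70.9 CPM in MET samples (SD, n = 5). CLEC4G was the most abundant per length. It also had the largest positive estimate (0.19, SE 0.199, and 0.026 to 0.29 with 1 library left out), and KDR had the largest negative (-0.26, SE 0.119). Erythroid markers, 2 of 8 tested and led by HBB, summed to 367 ± 369 CPM in CON and 177 ± 165 CPM in MET samples, a spread as large as the level, and neither HBB (-0.47, SE 0.943) nor ALAS2 (0.16, SE 0.852) passed or kept its sign with each library left out (-0.86 to 0.35 and -0.29 to 0.66). Enterocyte markers, 2 of 6 tested, summed to 36.4 ± 11.8 and 38.9 ± 3.46 CPM, led by CDH17 (0.21, SE 0.211; 0.066 to 0.34 with 1 library left out), and neither it nor VIL1 (-0.18, SE 0.356; -0.39 to 0.082 with 1 library left out) passed. Of 6 skeletal muscle markers, CKM, MYH2 and ACTA1 had 0 reads and none was tested. The part of these cell type markers in the difference of APOB was not tested.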

How the data were processed

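The authors sequenced liver RNA of 12 calves, used STAR 2.5.3a to align the reads to UMD 3.1.1 and deposited raw counts of reads per gene from featureCounts of Subread 1.5.2, counted by strand and without normalization. The files also gave exon positions and exonic length in bases. Symbols came from a RefSeq gene table of the assembly ARS-UCD2.0, used for names only, which named 25105 of 30336 gene IDs. LPA was not used, since the table gives it only as a synonym of another gene.

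CPM after TMM normalization, and edgeR 4.0.16 (R 4.3.3) quasi-likelihood tests on diet alone, were computed from these counts, keeping genes by edgeR's default filter (count of 10, total of 15), and Benjamini-Hochberg adjustment over all tested genes at an FDR of 0.10. The log2 CPM used a prior count of 2. Length trends were removed by a lowess fit with a span of 0.5. DESeq2 1.42.0 and limma 3.58.1 were alternatives. Scripts were tested on simulated data. A library pair with a mean chi-square per gene below 3, over genes with at least 20 reads in the pair, counted as 1 sample; nothing in the labels says the pair is 1 calf. Means and SDs use the mean of such a pair, and tests over 10 samples its summed reads. Floors cover counting error only, because the reads had no molecular identifiers.

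The members and lists were chosen with earlier results of these data known. Named from each list were genes within the FDR, the highest per length, and the largest estimates of each sign. A few results for genes that this rule selects are not reported here.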

Additional observations from a re-analysis of the deposited data

Results flagged for a closer look

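In CON samples, APOM was at 222 CPM in CON 2 and at 114 to 135 CPM in the other 4 samples. The gap between CON 2 and its nearest neighbour was 0.806 of the range of the group, above Dixon's 95% critical value for 5 samples. This was 1 of 22 groups examined, the 10 genes and their summed share in each diet, and chance gives about 1 in 20.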

How the results depend on the processing

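The count of 583 tested genes at an FDR of 0.10 became 107 with libraries scaled by size only (71 higher and 36 lower in MET, beside 276 higher and 307 lower), 238 without a filter on low counts, 250 with the length trend removed and 1314 with DESeq2. It was 0 with near-identical libraries summed, also with the length trend removed. It was also 0 when the first or the second library of each pair was dropped, and only these dropped-library fits were chosen after seeing the data. EdgeR gave 2165, 1864, 2154 and 2123 genes at an unadjusted p of 0.05 in these 4 fits, and DESeq2 called 639 genes with the pairs summed. Leaving out 1 library at a time gave 26 to 565. The count of 1 apolipoprotein gene became 0 in all the same fits except DESeq2, and ranged from 0 to 1 with 1 library left out. The cause was not tested.

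With the replicate number as a replicate block, 6 genes of the series and 0 apolipoprotein genes passed. Deviations of libraries with the same number correlated at -0.190 to 0.148. Near-identical libraries were among them, and such values cannot decide whether the numbers mark anything shared between the diets.

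Of 280 recomputed log2 fold changes of the 10 genes, 232 kept sign and side of the threshold, 19, all of APOB, kept sign but not the call, and 29, none of them called, changed sign. With the length trend removed, APOA2 became -0.037, APOC3 -0.142 and APOM -0.120 (-0.030, -0.107 and -0.093 over 10 samples). APOA4 became 0.013 with pairs summed (0.015 in DESeq2) and 0.0018 and 0.027 with a library of each pair dropped, and APOH 0.034 with size scaling only. With 1 library left out, ranges that crossed 0 were -0.495 to 0.128 for APOA4, -0.219 to 0.031 for APOC2, -0.071 to 0.253 for APOC3, -0.053 to 0.065 for APOH and -0.063 to 0.223 for APOM. The difference in the share of reads, 0.157 percentage points, was 0.146 without the 10 most counted other genes and 0.00885 (without MET replicate 6) to 0.326 (without MET replicate 5) with 1 library left out, each a move of less than the SD of either diet. The lowest count of any of the 10 genes in a library was 190 reads, and an effect of depth was not tested.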
